A study of Mus musculus with 42 samples.

Results

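C1ra, Serping1, C3, C4b and C7 encode proteins of the complement system, and their RNA was followed in 21 libraries of sorted mouse lung mesenchymal cells. The 5 genes were chosen by name, from their measured RNA: near loss in culture beside a small change after lung injury, with no numeric limit. They are 5 of the 26321 genes with a symbol in the CD1 RNA table and of the 35972 genes in the C57BL/6 table, and each was present in both. Their culture and injury values are therefore given as a description without a test. The difference between soft and stiff gels did not enter the choice and was tested.

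In CD1 mice, cells marked by a Col1a1-GFP reporter were sorted as negative for CD45, EpCAM and CD31. They were profiled directly from sham animals, or after 5 days in medium with 10% FBS on collagen-coated PDMS gels of 0.2 kPa (soft) or 32 kPa (stiff). In C57BL/6 mice, Col1a2-lineage cells negative for CD45 and EpCAM were sorted from sham animals and 14 or 56 days after bleomycin, which injures and scars the lung. The gate for the C57BL/6 cells is not stated to have used CD31. Each CD1 group had 3 RNA and 3 ATAC libraries and each C57BL/6 group had 4 of each. The labels give no age, no sex and no Cre driver detail beyond the Col1a2 lineage, and do not say whether replicates came from separate animals or cultures. The p-values therefore describe only how these libraries vary, which may be technical. The CD1 culture groups differ from sham by plating, growth and serum as well as by the gel, and these cannot be told apart.

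Complement is a cascade of blood and tissue proteins that marks microbes and damaged cells for removal. C1r and C1s are proteases of the C1 complex. C1r activates C1s, which starts the classical pathway by cutting C4 and then C2. The resulting convertase cuts C3, the central component, and the cascade can end in a membrane pore that C7 helps to build. C1 inhibitor, encoded by Serping1, blocks C1r and C1s. The liver makes most of the circulating proteins, and tissue fibroblasts are a known local source.

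Each library held 14288605 to 69524944 reads. The sorted cells carried fibroblast RNA: Pdgfra, a fibroblast receptor, was at 1167 to 1387 CPM (reads of a gene per 1000000 reads of its library) in CD1 sham and 1345 to 1608 CPM in C57BL/6 sham. Ptprc, which encodes CD45, reached at most 30.8 CPM in the RNA libraries and Epcam at most 1.35 CPM. Whole lists stood higher. The 10 leukocyte markers summed to 97.2 to 189 CPM in CD1 sham, 236 to 354 CPM in C57BL/6 sham and 568 to 2162 CPM at day 14. In C57BL/6 sham the 8 epithelial markers summed to 123 to 320 CPM. The 7 fibroblast markers, Pdgfra among them, summed to 31641 to 35554.5 CPM in CD1 sham and 4219 to 5196 CPM on the gels. They summed to 20008 to 25661 CPM in C57BL/6 sham. The 8 alveolar fibroblast markers also fell, from 3531 to 3723 CPM in CD1 sham to 316 to 594 CPM on the gels. The 8 adventitial fibroblast markers summed to 9417 to 11036 CPM in CD1 sham and 155 to 185 CPM on the gels. The 4 proliferation markers summed to 7.98 to 14.7 CPM in CD1 sham and 609 to 793 CPM on the gels. Hepatocyte markers were near 0, with Alb at no more than 0.12 CPM in any library. The 8 epithelial markers summed to 126 to 345 CPM and the 7 endothelial markers to 235 to 263 CPM in CD1 sham, and to at most 0.508 and 10.4 CPM on the gels. Xist, transcribed in female cells, exceeded the Y-linked Ddx3y in every CD1 library, in 1 of 4 C57BL/6 sham libraries, in 2 of 4 at day 14 and in 4 of 4 at day 56.

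The start sites show what lies before the genes. RefSeq's promoter table for GRCm38.p6, the same assembly as mm10, held C1ra, C3 and C7 (3 of the 5). Serping1 and C4b had no entry there. The 250 bases before each RefSeq start are printed on the gene's strand, and capitals mark matches to 8 short motifs searched on both strands. C1ra lies at chr6:124512371-124512620 (plus strand), C3 at chr17:57228137-57228386 (minus strand) and C7 at chr15:5063774-5064023 (minus strand).
C1ra promoter: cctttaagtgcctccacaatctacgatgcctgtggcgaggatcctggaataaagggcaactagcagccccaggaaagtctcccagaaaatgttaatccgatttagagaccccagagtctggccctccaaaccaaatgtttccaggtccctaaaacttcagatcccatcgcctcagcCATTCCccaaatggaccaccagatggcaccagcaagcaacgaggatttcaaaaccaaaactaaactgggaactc
C3 promoter: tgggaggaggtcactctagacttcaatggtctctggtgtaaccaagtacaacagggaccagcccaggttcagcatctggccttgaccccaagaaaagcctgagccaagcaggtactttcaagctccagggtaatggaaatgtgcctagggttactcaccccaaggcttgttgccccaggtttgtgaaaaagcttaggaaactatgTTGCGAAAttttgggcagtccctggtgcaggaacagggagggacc
C7 promoter: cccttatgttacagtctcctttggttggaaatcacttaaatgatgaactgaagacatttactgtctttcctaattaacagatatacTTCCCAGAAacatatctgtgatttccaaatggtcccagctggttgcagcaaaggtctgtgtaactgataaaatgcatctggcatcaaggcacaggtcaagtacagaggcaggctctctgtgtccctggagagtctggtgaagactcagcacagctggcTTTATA

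RefSeq's C1ra start lies downstream of the GENCODE start used for distances below. The capitals of C1ra are a TEAD motif (GGAATG, here as its reverse complement), found in 12.6% of the 32851 promoters in that table. The capitals of C3 are a C/EBP motif (TTGCNNAA), which 9.56% of promoters hold, with its first base 45 bases before the start. In C7, a STAT motif (TTCNNNGAA, 7.02% of promoters) began 164 bases before the start and a TATA motif (TATAAA, here as its reverse complement TTTATA; 12.4%) ended at the last base before it. The other motifs searched had no match in these windows: AP-1 (TGANTCA, 6.75% of promoters), the interferon response element (GAAANNGAA, 7.13%), NF-kB (GGAANNNCC, 15.7%) and RUNX (TGTGGT, 14% of promoters). No marked motif overlapped another. A match is a stretch of letters, not a measured binding site, and the 3 windows shared no motif.

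A listed ATAC region away from the starts is shown too, because it holds the rise that recurred most within 50 kb of the 5 starts. It is the middle of a region 27.3 kb upstream of C1ra (chr6:124484956-124485255), on the plus strand of the mm10 genome.
C1ra upstream region: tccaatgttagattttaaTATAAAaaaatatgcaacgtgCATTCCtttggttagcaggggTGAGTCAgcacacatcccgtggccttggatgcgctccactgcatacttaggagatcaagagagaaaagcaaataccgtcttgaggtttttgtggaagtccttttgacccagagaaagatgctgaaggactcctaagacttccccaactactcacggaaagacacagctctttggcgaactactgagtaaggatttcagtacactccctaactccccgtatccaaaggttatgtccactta

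The C1ra upstream region held an AP-1 motif (TGAGTCA), a TEAD motif (CATTCC, the reverse complement of GGAATG) and a TATA motif. Of 25518 regions listed for day 14, windows of the same length held AP-1 in 38.8%, TEAD in 23.7% and TATA in 12.5%.

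In freshly sorted sham cells the 5 genes were among the abundant transcripts. Together they took 2.04 to 2.35% of all reads in CD1 sham and 1.70 to 2.13% in C57BL/6 sham. Per kilobase of exon, which allows genes to be compared, the CD1 sham levels were 2582 ± 171 CPM per kb for Serping1, 2445 ± 320 for C3, 379 ± 82.2 for C7, 343 ± 51.1 for C4b and 283 ± 15.6 for C1ra (SD, n = 3). Serping1 and C3 lay within their SDs of each other, as did C7 and C4b. In C57BL/6 sham the order was the same, with 2982 ± 392 CPM per kb for Serping1, 1036 ± 129 for C3, 729 ± 222 for C7, 640 ± 62.5 for C4b and 328 ± 8.1 for C1ra (SD, n = 4). There Serping1 stood clear of C3, and C7 and C4b again lay within their SDs. The 2 tables were normalized separately, so levels are not compared between strains. In bulk RNA, fewer cells of a type and less RNA per cell cannot be told apart.

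**Figure D1:**
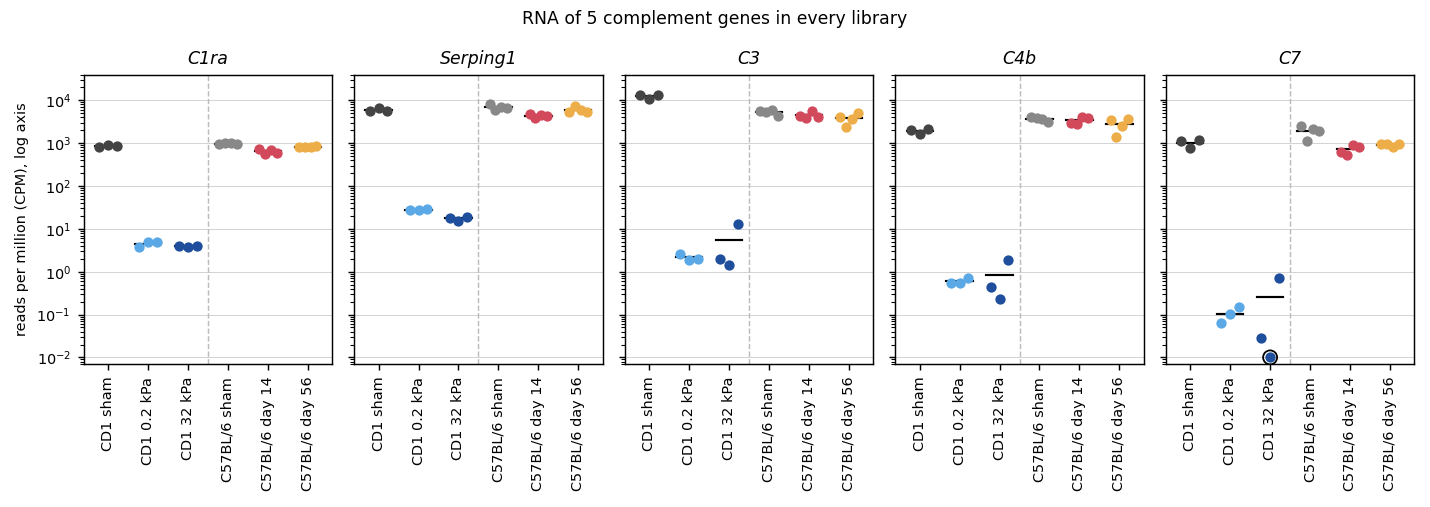
CPM (log axis) of C1ra, Serping1, C3, C4b and C7 in each of the 21 RNA libraries (points), with the mean of each group (bar). The library with 0 C7 reads is ringed at the bottom of the axis. Cultured libraries sit 187-fold or more below CD1 sham by their group means, whereas the distances between C57BL/6 groups are far smaller, with that of C7 the widest.

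After 5 days on either gel, reads of the 5 genes had nearly gone. They made up 0.00345 to 0.00362% of reads on 0.2 kPa and 0.00211 to 0.00387% on 32 kPa. The size of the loss split the genes. C1ra and Serping1 kept 0.26 to 0.587% of the sham mean in every cultured library, while C3, C4b and C7 kept no more than 0.103%. On 0.2 kPa, C1ra kept 0.442 to 0.587% and Serping1 0.46 to 0.474%. On 32 kPa the 2 did not overlap, with 0.451 to 0.483% for C1ra and 0.26 to 0.317% for Serping1. Over all 18478 genes tested in CD1, 39.2% were lower on 0.2 kPa than in sham and 41% were lower on 32 kPa (limma, adjusted p under 0.05). Those shares are background only, since the 5 genes were selected on this contrast.

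C1ra, the protease that is the first to be activated in the C1 complex, is encoded at chr6:124512405-124523443 (mm10, GENCODE M21; ENSMUSG00000055172). Its 3 CD1 sham libraries had 795, 888 and 850 CPM. The 0.2 kPa libraries had 3.73, 4.95 and 4.87 CPM and the 32 kPa libraries 3.88, 3.81 and 4.08 CPM. Every cultured library was low and no cultured value came near sham. The group means were 187-fold lower on 0.2 kPa and 215-fold lower on 32 kPa. Much of C1ra is repeated in a neighbouring copy: 48% of its 50-base windows occur in C1rb, and strand use is not stated, so reads of these 2 genes may be split between them. C1rb was also low in culture, at 186 ± 33.2 CPM in sham, 1.29 ± 0.227 CPM on 0.2 kPa and 1.14 ± 0.273 CPM on 32 kPa (SD, n = 3).

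Serping1 (chr2:84765387-84775444, minus strand; ENSMUSG00000023224) was the most abundant of the 5 per kilobase. Sham libraries had 5786, 6463 and 5761 CPM. On 0.2 kPa the values were 27.6, 27.9 and 28.4 CPM, and on 32 kPa they were 17.8, 15.6 and 19.0 CPM. The soft and stiff libraries did not overlap, and both lay far below sham, 215-fold on 0.2 kPa and 344-fold on 32 kPa. Serping1 kept the most reads of the 5 in culture, 3836 over the 0.2 kPa group and 2744 over the 32 kPa group.

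C4b encodes complement C4, the substrate of C1s (chr17:34728380-34743882, minus strand; ENSMUSG00000073418). Sham libraries had 2027, 1630 and 2197 CPM. The 0.2 kPa libraries had 0.542, 0.557 and 0.710 CPM, and the 32 kPa libraries 0.446, 0.236 and 1.86 CPM. All cultured values were under 2 CPM, with stiff replicate 3 the highest. Means were 3235-fold lower on 0.2 kPa and 2306-fold lower on 32 kPa. C4b shares 35.2% of its 50-base windows with C4a, a near copy that was at 7.70 ± 1.71 CPM in sham, 1.12 ± 0.193 CPM on 0.2 kPa and 0.717 ± 0.208 CPM on 32 kPa (SD, n = 3), so some reads of either may belong to the other.

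C3 (chr17:57203970-57228136, minus strand; ENSMUSG00000024164) had 13499, 10676 and 13548 CPM in CD1 sham, the highest CPM of the 5. It fell to 2.55, 1.92 and 2.01 CPM on 0.2 kPa. The 32 kPa libraries had 2.01, 1.41 and 13.0 CPM. Stiff replicate 3 was again apart from the other cultured libraries, at 0.103% of the sham mean. Group means were 5829-fold lower on 0.2 kPa and 2299-fold lower on 32 kPa.

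C7, which joins the growing membrane pore, lies at chr15:4988762-5063740 (minus strand; ENSMUSG00000079105). Sham libraries had 1125, 762 and 1158 CPM. Cultured libraries held single reads: 3, 5 and 6 reads on 0.2 kPa, and 1, 0 and 50 reads on 32 kPa, the 50 in replicate 3. A library with 0 reads allows up to 3 reads. The group mean was 9741-fold lower on 0.2 kPa and 4043-fold lower on 32 kPa, the former resting on 14 reads.

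**Figure D2:**
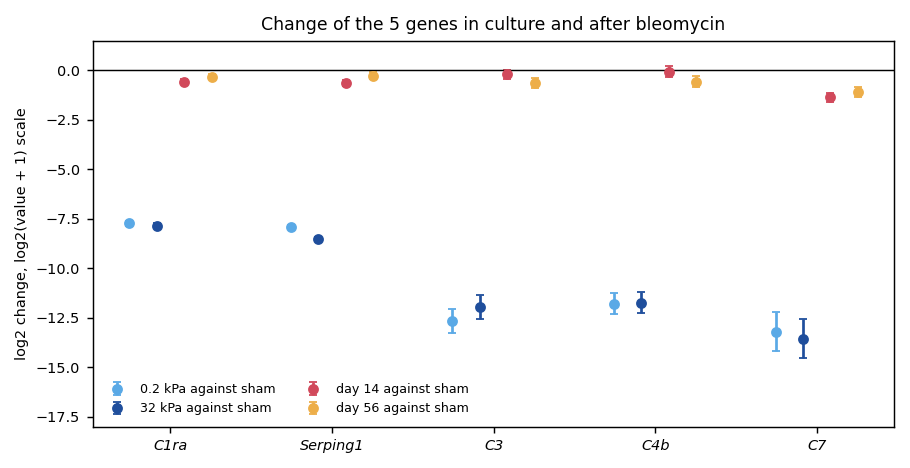
Fitted log2 change of the 5 genes, on the log2(rescaled value + 1) scale, with its SE (bars), for both gels against CD1 sham and for both injury times against C57BL/6 sham. The culture changes lie between -7.73 and -13.55 and the injury changes between -0.06 and -1.36.

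The fit averages log2(value + 1) over libraries. The added 1 pulls the change of low genes toward 0, while averaging logs gives a single high library less weight than a mean of CPM does. A fitted change can therefore exceed the fold of means, and for C7 on 32 kPa it corresponded to 12009-fold against 4043-fold by means. On that scale, 0.2 kPa differed from sham by -13.20 ± 1.00 (SE) for C7, -12.68 ± 0.60 for C3, -11.79 ± 0.53 for C4b, -7.93 ± 0.10 for Serping1 and -7.73 ± 0.12 for C1ra. The 32 kPa differences were -13.55 ± 1.00 for C7, -11.96 ± 0.60 for C3, -11.74 ± 0.53 for C4b, -8.52 ± 0.10 for Serping1 and -7.84 ± 0.12 for C1ra. Both comparisons share the 3 sham libraries. Without 32 kPa replicate 3 the 32 kPa differences became -15.05 for C7, -12.91 for C3 and -12.52 for C4b.

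Stiffness was compared directly between the gels. No gene of the table passed in either direction at an adjusted p under 0.05 (limma, 0% lower and 0% higher of 18478). That rests on 1 library: without 32 kPa replicate 3, limma called 511 lower (2.77%) and 338 higher (1.83%). With all libraries, at an unadjusted p under 0.05, 686 genes were lower on 32 kPa and 324 higher. DESeq2 called 39 lower and 4 higher, and edgeR 1 lower. Serping1 was lower on 32 kPa in 3 of 3 libraries, with a log2 difference of -0.60 (95% interval -0.81 to -0.39) and a limma adjusted p of 0.176. Its adjusted p was 5.96e-05 with DESeq2, 0.325 with edgeR and 0.0169 in limma without 32 kPa replicate 3, and ranged from 5.96e-05 to 0.757 over the alternatives. The authors' deposited table gives it an FDR of 0.00307.

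The other 4 genes did not pass between the gels. The limma log2 difference of C1ra was -0.11 (95% interval -0.39 to 0.17, adjusted p 0.839). For C4b it was 0.05 (interval -1.13 to 1.23, adjusted p 1). C3 gave 0.72 (interval -0.62 to 2.06, adjusted p 0.796) and C7 gave -0.36 (interval -2.56 to 1.85, adjusted p 0.956). The intervals of C3, C4b and C7 were wide, and 32 kPa replicate 3 lay apart from the other gel libraries in each. The direction of C7 turned with the method, to 1.64 with edgeR and 1.32 with DESeq2, neither past the threshold, and the authors' deposited table gives 1.33. Without 32 kPa replicate 3, limma gave C7 -1.86 with an adjusted p of 0.0362, a value that rests on 1 and 0 reads in the other 2 stiff libraries. In that fit C4b had -0.73 with 0.11 and C3 -0.23 with 0.48.

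That library, replicate 3 on 32 kPa, kept 0.103% of the sham mean of C3, 0.0952% of C4b and 0.0715% of C7. The other 2 stiff libraries kept 0.016 and 0.0112% of C3. C1s1, the partner protease of C1ra, followed the same pattern, with 0.149% of its sham mean in replicate 3 and 0.0321 and 0.0323% in the others. C1ra (0.483%) and Serping1 (0.317%) were close to the other stiff libraries there. The same library had 334.7 CPM of Npnt and 2.83 CPM of Pi16, markers of alveolar and adventitial fibroblasts, against 104 to 145 CPM and 0.726 to 0.948 CPM in the other stiff libraries. Over the whole lists, the 8 alveolar markers summed to 594 CPM in replicate 3 and 316 to 319 CPM in the others, and the 8 adventitial markers to 179 CPM against 155 to 161 CPM. Their part in the result was not tested.

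After bleomycin, every C7 and every C1ra library lay below every sham library at both times, and Serping1 did so at day 14 alone. The group means of C1ra lay nearer to sham than those of C7. C3 and C4b overlapped sham at both times, with means nearer to sham at day 14 than at day 56. The 5 genes took 1.17 to 1.58% of reads at day 14 and 1.30 to 1.59% at day 56. As background, 6.36% of 21100 genes were lower at day 14 and 9.57% higher (limma, adjusted p under 0.05). Both were part of the choice of the 5 genes. At day 56, 0.00474% (1 gene) were lower than in sham and 0% higher, with 688 and 640 at an unadjusted p under 0.05. DESeq2 called 26 lower and 54 higher there, and edgeR 1 lower.

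C1ra had 976, 995, 992 and 942 CPM in the C57BL/6 sham libraries, 722, 558, 684 and 598 CPM at day 14 and 808, 804, 834 and 853 CPM at day 56. The 3 groups did not overlap, with day 14 lowest and day 56 between. The means were 65.6% of sham at day 14 and 84.4% at day 56.

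Serping1 had 8199, 6090, 6938 and 6508 CPM in sham and 4710, 3849, 4475 and 4257 CPM at day 14, when every library was below every sham library. At day 56 it had 5358, 7482, 5976 and 5449 CPM and overlapped sham. The means were 62.3% and 87.5% of sham.

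C3 had 5562, 5394, 5960.5 and 4401 CPM in sham, 4309, 3968, 5746 and 4176 CPM at day 14, and 4002, 2323, 3716 and 5027 CPM at day 56. The groups overlapped at both times, and the means were 85.4% of sham at day 14 and 70.7% at day 56. C4b had 4031, 3787, 3578 and 3191 CPM in sham, 3007, 2747, 4010 and 3909 CPM at day 14, and 3538, 1386, 2526 and 3647 CPM at day 56, again with overlap, and means of 93.7% and 76.1% of sham. Day 56 replicate 2 was the lowest of the 12 libraries for both C3 and C4b, and replicate 3 was second lowest in both at that time. These were the 2 day 56 libraries in which fewer genes were detected, 16679 and 16563 against 20118 and 21379. Without these and the 2 sham libraries with fewer genes detected, the day 56 log2 difference moved from -0.57 to 0.01 for C4b and from -0.62 to -0.27 for C3.

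C7 had the largest injury difference of the 5. It had 2555, 1140, 2135 and 1970 CPM in sham, 608, 539, 920 and 834 CPM at day 14, and 954, 967, 836 and 954 CPM at day 56. Every injured library was below every sham library. The mean was 37.2% of sham at day 14 and 47.6% at day 56. The single sham library at 1140 CPM is the one with Xist above Ddx3y. At day 14 the libraries with Xist above Ddx3y had 608 and 539 CPM, and the others 920 and 834 CPM, so within each of these groups the Xist libraries were the lower ones. All day 56 libraries had Xist above Ddx3y. With a term for Xist above Ddx3y in the fit, the day 56 log2 difference of C7 from sham went from -1.09 to -0.50 and the day 14 difference from -1.36 to -1.16. The part of sex in the day 56 value was not tested beyond this term, and it rests on 1 such sham library.

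The log2 differences from sham at day 14 were -1.36 ± 0.24 (SE) for C7, -0.63 ± 0.17 for Serping1, -0.57 ± 0.12 for C1ra, -0.19 ± 0.24 for C3 and -0.06 ± 0.27 for C4b. At day 56 they were -1.09 ± 0.24 for C7, -0.62 ± 0.24 for C3, -0.57 ± 0.27 for C4b, -0.32 ± 0.12 for C1ra and -0.28 ± 0.17 for Serping1. Both times share the 4 sham libraries. From day 14 to day 56, Serping1 differed by 0.36, C7 by 0.26 and C1ra by 0.25, whereas C3 differed by -0.43 and C4b by -0.50. In the values as deposited, which lie lower for the typical gene at day 56 (median log2 difference from sham -0.22, against -0.02 after rescaling), the day 56 differences were larger, -1.31 for C7 and -0.54 for C1ra. The authors' deposited table gives C7 an FDR of 8.27e-06 at day 14 and 0.00494 at day 56. Markers moved with these groups too: the 8 alveolar markers summed to 6773 to 12993 CPM in sham, 1850 to 2289 CPM at day 14 and 7832 to 9909 CPM at day 56, and the 8 adventitial markers to 4664 to 6734, 3059 to 4342 and 3775 to 4834 CPM. The 7 general fibroblast markers went the other way at day 14, from 20008 to 25661 CPM in sham to 37625 to 49084 CPM, and were at 17880 to 23801 CPM at day 56. The 4 proliferation markers summed to at most 3.94 CPM in sham, 116 to 172 CPM at day 14 and at most 6.01 CPM at day 56. The 7 endothelial markers summed to 157 to 269, 61.3 to 105 and 71.1 to 141 CPM in the 3 groups, and the 8 epithelial markers to 123 to 320, 23.2 to 75.6 and 41.0 to 182 CPM. None of these lists had a marker at 0 in a whole group, and their part in the values of the 5 genes was not tested.

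The rest of the complement system was read from a pathway list of 61 genes, of which 56 are not among the 5, 46 passed the filter on low values in CD1 and 44 in C57BL/6. On 0.2 kPa, 33 of the 46 fell, 4 rose and 9 did not pass (limma, adjusted p under 0.05), against 39.2% lower and 31.9% higher over all genes. On 32 kPa, 37 fell, 4 rose and 5 did not pass, against 41% lower and 32.4% higher. The median log2 difference of the 46 was -3.06 on 0.2 kPa, where all genes had a median of -0.22, and -4.01 on 32 kPa, where all genes had -0.26. With the genes at 0 reads in a gel group set to their bound, these medians were -3.06 and -4.08. Both counts share the sham libraries. The filter takes the mean over all CD1 libraries. Genes read almost only in sham, such as Vtn, C6 and Cfd, therefore passed it through sham and could only count as falls. C4bp passed it through the gels and could only rise. The same filter applied to all genes.

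**Figure D3:**
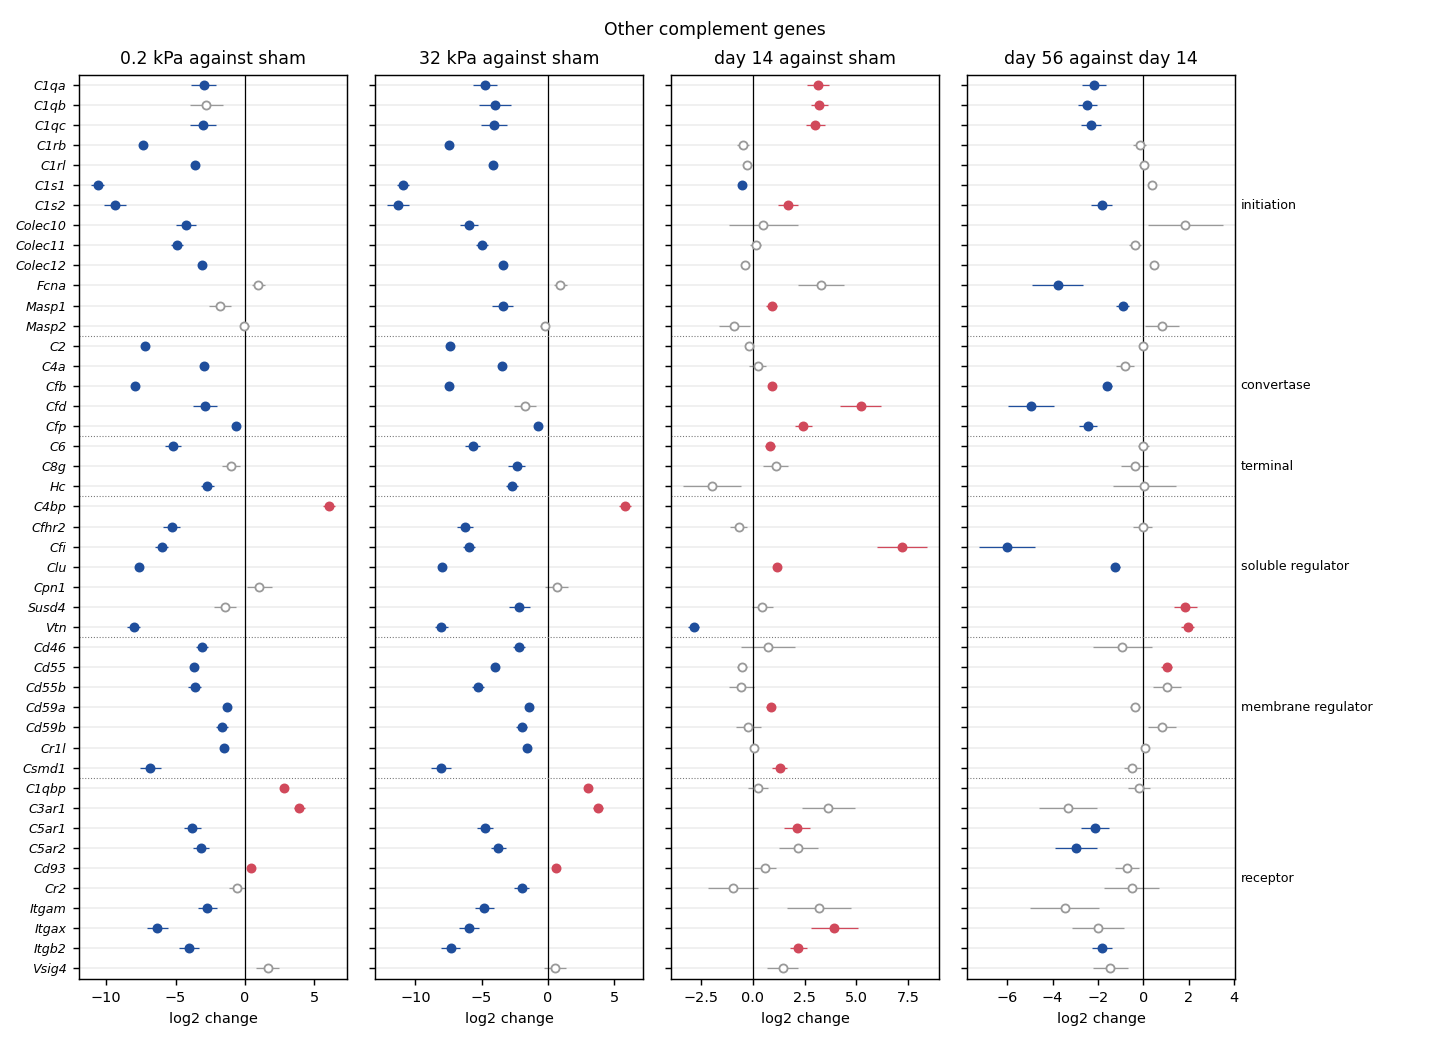
Fitted log2 change (points, with SE) of complement genes other than the 5, ordered by role, in 4 comparisons. Filled blue points are genes lower and filled red points genes higher at an adjusted p under 0.05 (limma), and open grey points did not pass. Most points in the 2 gel panels are blue, and in the day 14 panel 16 are red. The x axes differ between panels.

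Of the 13 other initiation genes, 9 fell on 0.2 kPa and 11 on 32 kPa, where 39.2% and 41% of all genes were lower. C1s1, the protease that C1r activates, fell by 10.63 on the log2 scale on 0.2 kPa, from 1826 ± 17.4 CPM in sham to 1.30 ± 0.258 CPM (SD, n = 3). C1s2, its near copy with 24.3% of C1s1 windows in common, fell by 9.38, and C1rb by 7.34. The collectins Colec10, Colec11 and Colec12, which recognise sugars, had log2 differences of -4.26, -4.89 and -3.11 on 0.2 kPa. C1rl fell by 3.57. C1qa and C1qc, made mainly by macrophages, had log2 differences of -2.96 and -3.02 on 0.2 kPa, with 11 and 7 reads left over the group, and 0 reads on 32 kPa, at least 42.9-fold and 26.2-fold lower. C1qb and Masp1 passed on 32 kPa, where C1qb had 0 reads (at least 33.9-fold lower) and Masp1 a log2 difference of -3.41, and did not pass on 0.2 kPa (-2.78 and -1.81). Sham replicate 2 held 121 of 157 sham reads of C1qa, 107 of 124 of C1qb and 78 of 96 of C1qc. Without it the bounds on 32 kPa were 15.5-fold, 7.33-fold and 7.76-fold, and neither C1qa and C1qc on 0.2 kPa nor C1qb on 32 kPa passed. The 10 leukocyte markers summed to 97.2 to 189 CPM in CD1 sham and 13.2 to 23.3 CPM on the gels, with 2 of them at 0 on 32 kPa. Their part in the C1q values was not tested.

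All 5 other convertase genes fell on 0.2 kPa and 4 of 5 on 32 kPa, beside 39.2% and 41% of all genes. Cfb and C2, the proteases of the alternative and classical convertases, had log2 differences of -7.91 and -7.22 on 0.2 kPa. C4a fell by 2.93. Properdin (Cfp), which stabilises the alternative convertase, fell by 0.64. Cfd fell on 0.2 kPa from 23 reads over the sham group to 0, at least 5.54-fold lower with 3 reads over the group as the floor. Among terminal genes, C6 and Hc (complement C5) fell on both gels, with log2 differences of -5.18 and -2.72 on 0.2 kPa, where C6 had 2 reads over the group. C8g passed on 32 kPa with -2.36.

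Of 8 other soluble regulators, 5 fell and 1 rose on 0.2 kPa, against 39.2% lower and 31.9% higher over all genes. These 8 are too few to set apart from that background. Clusterin (Clu) had a log2 difference of -7.65, Cfi of -6.01 and Cfhr2 of -5.29. Vitronectin (Vtn) had 1040 reads over the sham libraries and 0 on either gel, at least 251-fold lower on 0.2 kPa and at least 284-fold lower on 32 kPa. Susd4 passed on 32 kPa (-2.17) and did not pass on 0.2 kPa (-1.43). C4bp, also a soluble regulator, rose on both gels, from 2 reads over the sham group to 270 reads on 0.2 kPa, a ratio of 187 (95% counting interval 51.2 to 1550.5).

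The membrane regulators protect the cell's own surface, and 7 of 7 fell on both gels, beside 39.2% and 41% of all genes. On 0.2 kPa the log2 difference was -6.81 for Csmd1, -3.69 for Cd55, -3.62 for Cd55b, -3.10 for Cd46, -1.63 for Cd59b, -1.54 for Cr1l and -1.27 for Cd59a. Receptors were mixed, with 5 of 10 lower and 3 higher on 0.2 kPa, and 6 lower and 3 higher on 32 kPa. Over all genes, 39.2% were lower and 31.9% higher on 0.2 kPa, and 41% and 32.4% on 32 kPa. The 10 receptors are too few to set apart from that background. The anaphylatoxin receptor C3ar1 rose by 3.93 on 0.2 kPa and C1qbp, a mitochondrial protein that also binds C1q, by 2.84, from 30.9 ± 3.03 to 250.5 ± 6.94 CPM (SD, n = 3). Cd93 rose by 0.45. Itgax, Itgb2, C5ar1, C5ar2 and Itgam, receptors carried mainly by leukocytes, had log2 differences of -6.31, -4.06, -3.80, -3.18 and -2.72. Cr2 passed on 32 kPa with -1.99. Of the genes named for the gels, Cfp and Cd93 on 0.2 kPa and Susd4 on 32 kPa each lost their call in 4 of 9 fits that left out a library. C1qa and C1qc on 0.2 kPa each lost theirs in 3 of 9, also without 0.2 kPa replicate 1 or 2. Neither edgeR nor DESeq2 called C1qc on 0.2 kPa or Susd4 on 32 kPa. Between the gels, 0 of the 46 passed in limma, with 9 lower and 1 higher at an unadjusted p under 0.05. DESeq2 called Itgb2 lower and edgeR called none. Without 32 kPa replicate 3, limma called 6 of the 46 lower (Colec12, C1s1, C1s2, Itgam, Itgb2 and Masp1), where it called 2.77% of all genes lower.

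At day 14, 16 of the other 44 pathway genes rose, 2 fell and 26 did not pass, against 9.57% higher and 6.36% lower over all genes, with a median log2 difference of 0.79 where all genes had 0.05. Cfi, the protease that cuts C3b and C4b, rose by 7.19, from 14 reads over the sham group to 1608. The filter is again a mean over all libraries of the table, so genes nearly absent in sham, such as Cfi, had little room to fall. Cfd rose by 5.20 and Itgax by 3.93. The C1q chains C1qb, C1qa and C1qc rose by 3.20, 3.13 and 3.03, and Cfp, Itgb2 and C5ar1 by 2.44, 2.21 and 2.14. The leukocyte markers moved with this group: 10 of 10 were measured, none at 0, and they summed to 236 to 354 CPM in sham, 568 to 2162 CPM at day 14 and 185 to 657 CPM at day 56. Their part in these rises was not tested.

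C1s2, Csmd1, Clu, Cfb, Masp1, Cd59a and C6 also rose at day 14, by 1.71, 1.30, 1.16, 0.91, 0.91, 0.86 and 0.83. Cfb went from 688 ± 112 to 1261 ± 229 CPM (SD, n = 4), whereas the day 14 means of C3 and C4b lay within the range of their sham libraries. Vtn fell by 2.85, from 16.2 ± 1.36 to 2.20 ± 0.461 CPM (SD, n = 4), and C1s1 by 0.52, from 2081 ± 175 to 1412 ± 170 CPM. The limma call of C1s1 (adjusted p 0.0283) was lost without sham replicate 2 or 3, or day 14 replicate 2, 3 or 4, with adjusted p up to 0.107. Its partner C1ra differed by -0.57 at that time. Without day 14 replicate 2 the count that rose was 10. Besides C1s1, the calls of C1s2, C5ar1, Cd59a, C6, Masp1, Csmd1 and Itgax were each lost in at least 1 fit that left out a library. The calls of C5ar1, C6 and Masp1 were also lost with a term for Xist above Ddx3y. C1rb and C4a did not pass (-0.46 and 0.24).

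At day 56, 0 of the 44 differed from sham in limma, with a median of 0.01 where all genes had -0.02, and with 2 lower and 4 higher at an unadjusted p under 0.05. DESeq2 called Susd4 higher and edgeR called none. Against day 14, 14 fell and 3 rose, where 8.49% of all genes were lower and 5.71% higher. That background moves with the scaling: 3036 genes were lower and 778 higher on values as deposited, and 1394 lower and 1576 higher on total reads alone. The log2 difference of Cfi was -6.0, of Cfd -4.95 and of Fcna -3.77. C5ar2, C1qb, Cfp, C1qc, C1qa and C5ar1 had -2.97, -2.47, -2.43, -2.30, -2.19 and -2.13, and C1s2, Itgb2, Cfb, Clu and Masp1 had -1.83, -1.81, -1.60, -1.24 and -0.91. Vtn rose by 1.94, Susd4 by 1.84 and Cd55 by 1.03. The count that fell was 9 without day 14 replicate 1 or without day 14 replicate 2, and the count that rose was 5 without day 56 replicate 3. Calls lost in at least 1 fit that left out a library were those of C1s2, C5ar1, C5ar2, Masp1, Fcna and Susd4, in Masp1 in 9 of 12 such fits. With a term for Xist above Ddx3y, limma lost the calls of C1qa (adjusted p 0.0531), C5ar2, Masp1, Fcna and Susd4. Over all genes that fit called 1194 lower and 730 higher. Every day 56 library had Xist above Ddx3y, and the part of sex in these falls and rises was not tested further.

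The RNA patterns most like those of the 5 genes were then looked up. Likeness was the root mean square distance, over 21 libraries and on the log2 scale relative to sham, from the median profile of the 5, among 16431 genes tested in both tables. The 8 nearest outside the pathway list were Pi16 (distance 0.61, Pearson r 0.997), Galnt15 (0.69, 0.994), Actc1 (0.70, 0.991), Gdf10 (0.70, 0.997), Ces1d (0.71, 0.992), Slco2b1 (0.75, 0.994), Sparcl1 (0.79, 0.996) and Itih5 (0.94, 0.994). Pi16 and Ces1d were also on the lists of adventitial and alveolar markers. These r values are set by the gap between sham and culture that the libraries share and carry no test. The distances rest largely on that gap too, so a short distance does not mean a small injury change. Pi16, an adventitial fibroblast marker, had a mean of 2461 CPM in CD1 sham, 1.46 CPM on 0.2 kPa and 1.5 CPM on 32 kPa, and 1398, 1244 and 1280 CPM in C57BL/6 sham, day 14 and day 56. The day 14 means of all 8 genes lay below C57BL/6 sham, by unlike amounts. Slco2b1 had 489, 125 and 235 CPM in sham, day 14 and day 56, and Ces1d had 478, 172 and 560 CPM. Galnt15 had 175, 67.5 and 92.9 CPM and Itih5 151, 55.2 and 120 CPM, whereas Sparcl1 had 3690, 3418 and 4373 CPM. With a pseudocount of 5, 5 of these 8 stayed among the 8 nearest. Of the pathway list, C1s1 was at a distance of 0.62, closer than C7 itself (1.08), Serping1 (1.96) and C1ra (2.18).

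Accessible chromatin near the 5 genes was taken from the authors' deposited ATAC lists, which hold regions past the authors' thresholds with an authors' log2 fold and FDR. A region not listed is not shown to be unchanged. Within 50 kb of the 5 start sites, the 0.2 kPa list held 39 regions, 38 of them lower than in sham, and the 32 kPa list held 40, of which 38 were lower. Over the whole lists, 87.9% of 47475 and 70.4% of 58510 regions were lower. The 2 lists have unlike limits, with smallest log2 folds of 1 on 0.2 kPa and 0.31 on 32 kPa in size. Their counts and shares are therefore not compared with each other. Regions within 1 kb of the start were lower on both gels at C1ra, Serping1, C3 and C4b (4 of 5). Over all 21951 protein-coding genes, 54.8% had such a lower region in the 0.2 kPa list and 54.5% in the 32 kPa list, and 5 genes are too few to set apart from that background.

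**Figure D4:**
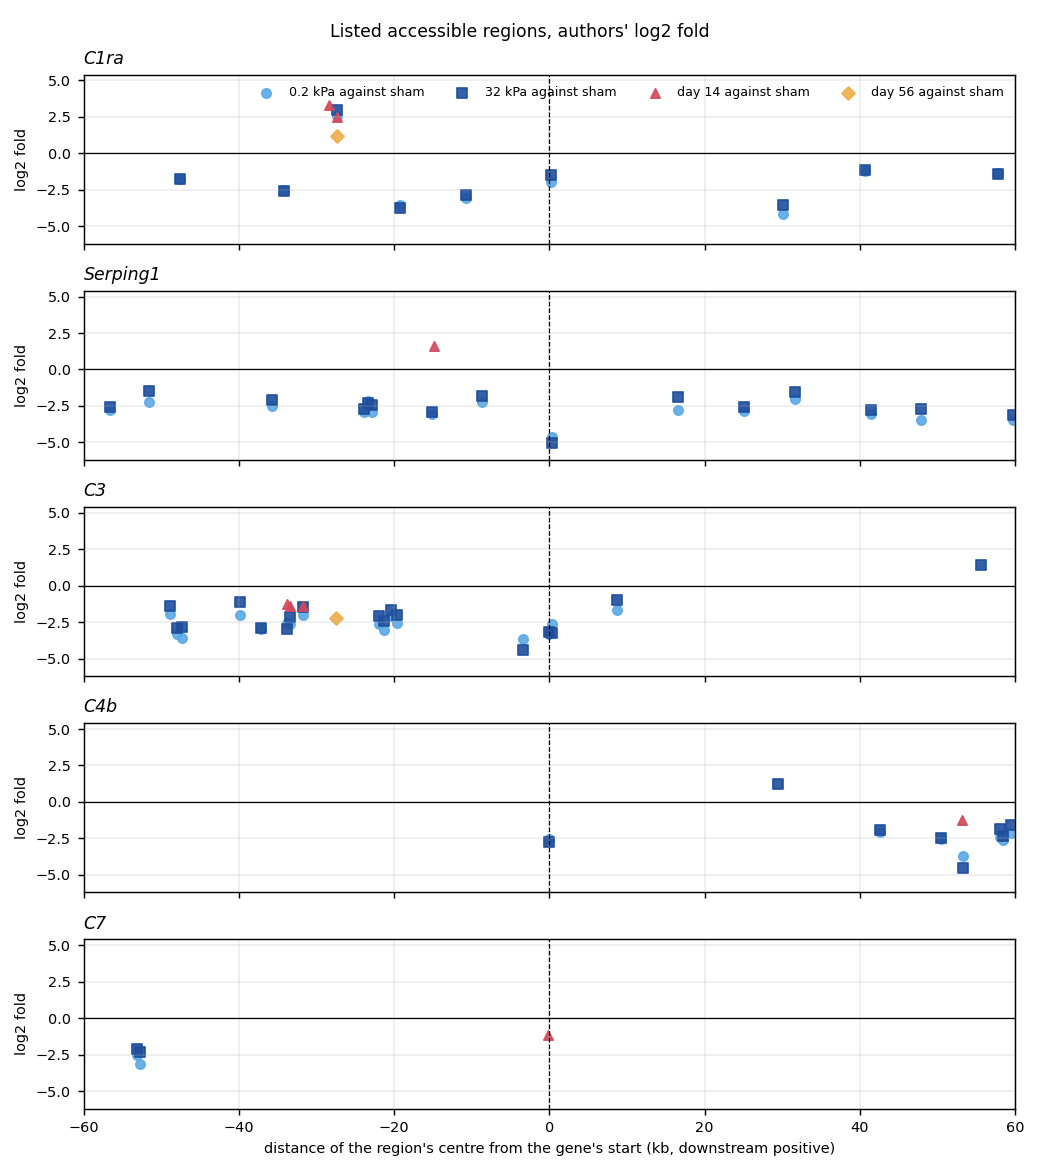
Authors' log2 fold of each listed accessible region against the distance of its centre from the gene's start, for the 5 genes, in 4 comparisons (symbols). Points below 0 were less accessible than in sham. Nearly all gel points lie below 0, points 27.3 to 28.4 kb upstream of C1ra lie above 0, and C7 has no gel point within 50 kb.

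The region over the Serping1 start (chr2:84774681-84775646) had the lowest FDR near the 5 genes. In the authors' deposited table its log2 level was 10.43 in sham and 5.81 on 0.2 kPa, a fold of -4.61 with an FDR of 3.41e-139, tied for the lowest of that list. On 32 kPa the authors' deposited table gives -5.07 with an FDR of 1.11e-171, 10th of 58510 by FDR. Serping1 also had 11 further lower regions within 50 kb on both gels, 4 of them nearest to the start of Ube2l6.

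At C3 the region over the start, chr17:57227981-57228266, was lower in the authors' deposited table by 3.31 on 0.2 kPa and by 3.16 on 32 kPa (log2 folds of -3.31 and -3.16). A region 3.45 kb upstream had folds of -3.63 and -4.39 there. At C4b, chr17:34743807-34744153 over the start had folds of -2.55 and -2.74 in the authors' deposited table.

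At C1ra the start region, chr6:124512486-124512791 in the gene, had the smallest falls of the 4 genes, -2.0 on 0.2 kPa and -1.51 on 32 kPa in the authors' deposited table. Larger falls lay around it: -3.53 and -3.78 at 19.2 kb upstream over the start of C1rl, and -4.13 and -3.54 over the start of the neighbour C1s1, 30.1 kb downstream, both from the authors' deposited table. C1ra also had the rise that recurred. The region 27.3 kb upstream, whose sequence is printed above and whose nearest coding start is that of C1rl, had authors' deposited folds of 2.55 on 0.2 kPa and 3.00 on 32 kPa. The authors' deposited table for injury gives it 2.51 at day 14 (FDR 4.08e-40), 1.18 at day 56 against sham (FDR 8.97e-06) and -1.30 at day 56 against day 14. A second region 28.4 kb upstream rose by 3.30 at day 14 and was -3.26 at day 56 against day 14 in the authors' deposited tables.

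C7 differed from the other 4 in these lists. Neither gel list held a region within 50 kb of its start, although its RNA had the largest difference, and the nearest were 52.7 and 53.1 kb upstream at Rpl37 with folds of -3.12 and -2.52 on 0.2 kPa in the authors' deposited table. After injury the C7 start region, chr15:5063694-5064092, which spans the promoter printed above, was listed: its authors' deposited log2 level was 7.75 in sham and 6.59 at day 14, a fold of -1.16 (FDR 1.34e-08), and 1.08 at day 56 against day 14 (FDR 1.71e-08). Such a lower start region was listed for 0.665% of protein-coding genes at day 14, and a higher one for 0.483% at day 56 against day 14. C7 was the single one of the 5 with a listed start region in any injury comparison. Whether the C7 difference between gels and injury is larger than error was not tested, since the lists give no value for unlisted regions.

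Other injury regions lay at a distance. In the authors' deposited table for day 14, 3 regions 31.8 to 33.8 kb upstream of C3, inside Trip10, had folds of -1.27 to -1.42, and 1 region 14.9 kb upstream of Serping1 had 1.62. The day 56 list held 2 regions within 50 kb, the C1ra region above and one 27.4 kb upstream of C3 with a fold of -2.24 (FDR 0.0467). Between the gels, 1 region was listed, 39.8 kb upstream of C3, higher on 32 kPa by 1.05 (FDR 0.00284) in the authors' deposited table.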

How the data were processed

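RNA-seq and ATAC-seq were measured in 21 libraries each. The submitters' processing notes name HISAT2, featureCounts, Subread, Picard, DESeq2, Bowtie2, SAMtools, MACS2, bedtools, DiffBind and HOMER, with build mm10. Versions, settings and strandedness: not given in the sources used here. In 2 RNA tables the deposited values are normalized signal per gene and library, made by the authors. All values were whole multiples of 1 step per column, so reads were recovered, 100% whole within 0.05 reads. Of 27178 CD1 entries, 855 without a symbol (2.13 to 4.77% of reads) were left out. The deposited log2 folds and p-values (FDR) of the RNA and ATAC comparisons are the authors' own, per the file headers. By their contents, the ATAC lists stop at an FDR of 0.05. All but the list of 32 kPa against sham also hold no fold smaller than 1 in size on the log2 scale. Folds are printed as the first-named group over the second, with the sign checked against the level columns, and region coordinates are as the files give them.

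As the deposited values are normalized, the main test was limma, as planned. Values were rescaled by 1 median-of-ratios factor per library. Genes with a mean of at least 1 were tested with limma-trend (limma 3.58.1, R 4.3.3) on log2(value + 1), 1 fit per table, Benjamini-Hochberg over all genes, threshold 0.05. The test was checked on simulated data. Alternatives were edgeR 4.0.16 and DESeq2 1.42.0 on recovered reads, other pseudocounts, scalings and filters, a replicate block and leaving out libraries. A fit with a term for Xist above Ddx3y and one without the 4 C57BL/6 libraries with fewer genes detected were chosen after seeing the data. In no comparison did every same-numbered pair of libraries deviate together with a correlation over 0.1, so libraries were not treated as paired. CPM comes from recovered reads. Intervals and floors for counts cover counting error only. Gene positions and exon lengths are from GENCODE M21 and promoters from RefSeq GRCm38.p6. Of the 5 genes, 3 had a promoter entry, and in 200 of 200 promoters checked the genome held the same letters.

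The 5 genes and the lists were chosen with earlier results of these data known. Other complement genes are named if they passed in at least 2 comparisons or were among the 3 largest in a direction of a comparison, and C1rb and C4a always. The single genes singled out for marker values (Npnt, Pi16, Pdgfra, Ptprc, Epcam, Alb) were chosen after their values were seen, as were C8g and Cr2, which passed in 1 comparison each. Of the list 1 gene, and near the 5 genes 1 region, are not reported here singly or plotted, though the counts hold them.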

Additional observations from a re-analysis of the deposited data

Results flagged for a closer look

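Within the C57BL/6 groups of 4, a library was set apart when its gap to the nearest other was unusually large for the range of its group. Of 138 groups looked at for the 5 genes and the other named complement genes, 11 had such a library. The limit sets apart about 1 in 20 groups of normally distributed values. That rate does not hold for genes near 0 reads, so the count of 11 is not compared with it. C7 at day 56 was 836 CPM in replicate 3 and 954 to 967 CPM in the others, a narrow range below every sham library. In sham, C1rb was 46.4 CPM in replicate 3 (24.7 to 26.9 CPM in the others), Clu was 158 CPM in replicate 2 (83.3 to 87.8), Vtn was 18.3 CPM in replicate 2 (15.3 to 15.8) and Fcna was 1.17 CPM in replicate 1 (0 to 0.0259). At day 56, Cd59a was 64.1 CPM in replicate 2 (41.6 to 44.5) and Hc was 4.0 CPM in replicate 3 (0 to 0.673). The others lay under 1 CPM: C5ar2 at 0.339 CPM in sham replicate 4 and 0.0979 CPM in day 56 replicate 4, Cfd at 0.242 CPM in sham replicate 4, and Colec10 at 0.674 CPM in sham replicate 3.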

How the results depend on the processing

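Of 550 values of the 5 genes against sham or between injury times under the alternatives, 546 kept their direction and 531 moved by less than 1 SD. Much of this was fixed in advance. The filters, the fit on 2 groups, the block and leaving out a library of the third group cannot change a value. The gel differences from sham, on which the genes were chosen, were too large for a setting to turn. The exceptions in direction were C4b at day 14, which ranged from -0.15 to 0.033 when 1 library was left out (positive without day 14 replicate 2), and was 0.0015 with the Xist term and 0.023 without the 4 libraries with fewer genes, and C4b at day 56, at 0.0081 without those 4. Between the gels, C4b turned to -0.028 on total reads alone and ranged from -0.73 to 0.67 when 1 library was left out. C3 ranged from -0.23 to 1.32 in the same way. C7 turned to 1.64 with edgeR, 1.32 with DESeq2 and 0.15 with a pseudocount of 5, and ranged from -1.86 to 0.71 leaving out 1 library. The cause was not tested.

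For the other complement genes, leaving out 1 library gave 0 to 6 lower between the gels, 1 to 2 lower and 10 to 17 higher at day 14, and 9 to 15 lower and 2 to 5 higher at day 56 against day 14. DESeq2 gave 1 lower between the gels, 1 higher at day 56 against sham and 5 higher at day 56 against day 14. Total reads alone also gave 5 there, and leaving out the 4 libraries gave 6. Labels share replicate numbers, but no comparison had a correlation over 0.1 in every same-numbered pair (r from -0.37 to 0.26). With the replicate block 1 gene fell at day 14 in place of 2, the lost one being C1s1 (limma adjusted p 0.069), and no other count moved by over 1.5 times. C6, Masp1 and Csmd1 at day 14 (0.0516, 0.0745 and 0.0532) and Masp1 at day 56 against day 14 (0.083) were also lost with the block. At day 14 against sham every library correlated best with its own number (r 0.08 to 0.26), a hint from the data and not the design.

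Listed regions near the 5 genes numbered 9 on 0.2 kPa, 9 on 32 kPa, 0 between the gels, 1 at day 14, 0 at day 56 and 1 at day 56 against day 14 within 10 kb. Within 100 kb they numbered 70, 73, 1, 21, 4 and 16. With an FDR of at most 0.01 the day 56 list kept 1. Reads limit C7 in culture, where 5 of 6 libraries held at most 6 reads. ATAC depth was not analysed here.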

Other observations

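The near copies had unlike CPM in the 2 sham groups, given here as a description and not as a comparison of strains. C1s2 had 135 to 186 CPM in CD1 sham and 1.86 to 3.06 CPM in C57BL/6 sham, and C1rb had 163 to 224 CPM and 24.7 to 46.4 CPM. C1s1 (1807 to 1840 and 1897 to 2243 CPM) and C1ra (795 to 888 and 942 to 995 CPM) lay closer together. The tables were normalized separately and differ in sorting and reporter as well as strain, so no test was made. They also hold different numbers of entries, 27178 and 35972. Of the 50-base windows of C1rb, 59.2% occur in C1ra, and of those of C1s2, 26.9% occur in C1s1. The part of read assignment between copies in these levels was not tested. C6 was the terminal gene that rose at day 14, from 11.2 ± 3.10 to 18.9 ± 3.19 CPM (SD, n = 4), and it stood at 20.7 ± 4.57 CPM at day 56, while C7 was lower than sham at both times. Susd4, a complement inhibitor, was at 1.57 ± 1.2 CPM in sham, 1.75 ± 0.571 CPM at day 14 and 6.65 ± 0.737 CPM at day 56 (SD, n = 4). It rose against day 14 and did not pass against sham in limma.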
